A study of Mus musculus with 16 samples.

Results

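The genes described here are 49 mouse genes of the interferon response, followed through all 16 arrays of a hippocampus expression study. They were chosen by name from what is known of them, but with earlier results of these data known. Their counts below are therefore set beside the shares of all probe sets as a description. Each was matched by gene symbol, current or older, to the array's annotation. Of the 49 genes, 46 had at least 1 probe set (a group of short probes that reports 1 transcript) annotated to them alone, and these genes had 73 of the 45037 probe sets. Isg15, Gbp4 and Ifi44 were not analysed here. The members are 4 receptor genes, 37 genes listed as induced mainly by type I interferons (35 with a probe set) and 8 listed as induced mainly by interferon-gamma (7 with a probe set), although many answer to both.

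Total RNA from hippocampi of C57BL/6J-background mice was measured on Affymetrix Mouse Genome 430 2.0 arrays, each array holding a pool of 3 to 4 mice given as alike in age, sex and genotype. CREB is a transcription factor that answers to cAMP and calcium signals in neurons. VP16-CREB is CREB joined to the activation domain of a viral protein, which makes it active without those signals, and A-CREB is a dominant negative partner that keeps CREB off DNA. The study set gain of CREB activity beside its loss. VP16-CREB mice (tetO-VP16-CREB) 3 weeks after doxycycline (dox) was withdrawn, 6 weeks old, gave 3 pools, against 3 pools of wild-type littermates of that age. VP16-CREB mice 1 week after dox was withdrawn, 3 weeks old, gave 2 pools, against 2 pools of wild-type littermates. A-CREB mice (TetO-A-CREB-95), 6 weeks old and raised without dox, gave 3 pools, against 3 pools of wild-type littermates. A tetO transgene needs a tetracycline-controlled transactivator, which makes such mice bitransgenic, and the promoter that drives it is not given in the sources used here. Against wild-type controls the effects of transactivator and transgene cannot be told apart. Time off dox and age go together between the VP16-CREB cohorts.

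Interferons are secreted cytokines. Type I interferons act through a receptor of Ifnar1 and Ifnar2, and interferon-gamma through a receptor of Ifngr1 and Ifngr2; both send STAT proteins to the nucleus, where the complex of Stat2 and Irf9 binds the interferon-stimulated response element (ISRE) and other STAT dimers bind the gamma-activated site (GAS). The genes switched on there sense viral RNA and DNA, block steps of viral replication, attach or remove ubiquitin-like tags and feed back on the pathway, and in the brain microglia, astrocytes and neurons can all respond.

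The promoters of 6 members that carry such elements are shown, since through such elements the pathway is known to reach its genes. Each is the stretch of 180 bases that ends just before the transcription start, written 5′ to 3′ on the gene's own strand, from RefSeq on GRCm38.p6, with the ISRE core (GAAA, any 2 bases, GAAA) and the GAS core TTCNNNGAA, on either strand, in capitals. Ifit1, Rsad2 and Bst2 stand for the type I list, and Gbp2, Igtp and Irf8 for the interferon-gamma list.
Ifit1: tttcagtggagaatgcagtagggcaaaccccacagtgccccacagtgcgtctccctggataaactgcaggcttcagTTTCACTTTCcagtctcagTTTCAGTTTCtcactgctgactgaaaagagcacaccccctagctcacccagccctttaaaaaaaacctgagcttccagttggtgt
Rsad2: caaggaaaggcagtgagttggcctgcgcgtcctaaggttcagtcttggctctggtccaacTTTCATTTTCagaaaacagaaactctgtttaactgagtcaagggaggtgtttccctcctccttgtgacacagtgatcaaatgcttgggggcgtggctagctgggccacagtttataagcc
Bst2: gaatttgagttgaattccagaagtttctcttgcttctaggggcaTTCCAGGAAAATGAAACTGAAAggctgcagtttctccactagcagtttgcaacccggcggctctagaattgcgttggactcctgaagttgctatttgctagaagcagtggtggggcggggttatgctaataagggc
Gbp2: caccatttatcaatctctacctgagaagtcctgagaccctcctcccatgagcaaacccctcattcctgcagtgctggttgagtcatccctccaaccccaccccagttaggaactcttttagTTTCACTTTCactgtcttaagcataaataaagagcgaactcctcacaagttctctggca
Igtp: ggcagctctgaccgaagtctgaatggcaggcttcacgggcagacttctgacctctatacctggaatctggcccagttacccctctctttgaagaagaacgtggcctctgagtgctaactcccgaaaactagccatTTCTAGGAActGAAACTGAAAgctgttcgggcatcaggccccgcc
Irf8: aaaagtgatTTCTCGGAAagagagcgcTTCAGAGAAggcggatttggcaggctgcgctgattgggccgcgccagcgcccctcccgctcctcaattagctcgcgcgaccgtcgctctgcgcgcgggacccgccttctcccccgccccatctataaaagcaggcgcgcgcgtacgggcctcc
The stretches lie at chr19:34640709-34640888 (plus strand) for Ifit1, chr12:26456453-26456632 (minus) for Rsad2, chr8:71537473-71537652 (minus) for Bst2, chr3:142620483-142620662 (plus) for Gbp2, chr11:58199376-58199555 (plus) for Igtp and chr8:120736178-120736357 (plus) for Irf8. Ifit1 has 2 ISRE cores, starting 104 and 85 bases before the start site. In Bst2 a GAS core and 2 ISRE cores overlap in 1 run of capitals, and in Igtp a GAS core stands 2 bases ahead of an ISRE core. Irf8 has 2 GAS cores and no ISRE core in its window.

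Windows of 250 bases before to 50 after the start were available for 36 of the 46 measured members. The ISRE core occurred in 16 of these 36 (44.4%), against 3.99% of all 27025 genes with a window. The GAS core occurred in 11 (30.6%), against 9.55% of all genes. The palindromic cAMP response element TGACGTCA, the full CREB site, occurred in 0 of the 36, against 2.03% of all genes, and its shorter core TGACG, which the full site contains, in 7 (19.4%), against 23.0%. Among the type I members 12 of 26 windows held an ISRE core, among the interferon-gamma members 4 of 6, and among the receptors 0 of 4. A match is only a run of letters in the window and does not show that a factor binds there.

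Array values were MAS5 intensities on a linear scale that the authors had scaled to 1 trimmed mean. The 3 week cohort had higher array medians (118.9 to 129.3) than the other cohorts (75.0 to 93.2), so differences were taken within each cohort. In the A-CREB cohort replicate 1 had an Xist intensity of 63.4 in the A-CREB pool and 34.5 in the control pool, against 3611 or more on the other 14 arrays, and an intensity of the Y-linked Eif2s3y of 297.6 and 487. A-CREB control replicate 2 had both Xist (3611) and some Eif2s3y (86.5), so it is uncertain that its mice were alike in sex. By these 2 genes the pools of the A-CREB cohort seem to differ in sex, which was not in the fit. All 7 measured markers of hippocampal neurons passed the filter on low values. Of the members, 41 of 46 passed that filter (intensity above the median of all values, 99.1, on at least 2 arrays) at the probe set of highest mean, which stands for the gene below. Oasl1, Ddx60, Dhx58, Mx2 and Sp100 did not pass and were not tested.

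At 3 weeks after VP16-CREB induction the interferon response genes were higher in VP16-CREB hippocampus across nearly the whole list. Of the 41 tested members, 27 were called higher and 0 lower (limma, adjusted p under 0.05 over all probe sets), where 3.28% of all 27044 probe sets tested were called higher, 0.651% lower and 3.93% in either direction. At an unadjusted p under 0.05, 36 of the 41 were higher, where 8.96% of all probe sets were. Ifi209, Mx1 and Zbp1 passed the filter only through the 3 week VP16-CREB pools, in which they are high, so their tests at 3 weeks are not independent of the filter. Of the 38 other tested members 25 were called higher, and 33 at the unadjusted threshold. The median log2 difference was 1.19 over the 46 measured members and -0.01 over all probe sets. In 38 of the 46 (82.6%) every VP16-CREB pool lay above every control pool, against 11.4% of all probe sets. The rises ranged up to 8.27-fold for Lgals3bp, and those of at least 1.5 on the log2 scale included Oasl2, Irf8, Irf7, Ifit1, Ifit3, Ifitm3, Trim30a, Usp18, Gbp2, Rtp4, Ifi209, Mx1, Rsad2, Parp9 and Bst2. Since the tissue is bulk hippocampus, more cells of a type and more RNA per cell cannot be told apart.

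The same pools also carried more RNA of microglia and macrophages. Of 12 markers of these cells 11 were called higher at 3 weeks (median log2 difference 2.33), 3 of 12 at 1 week (0.96) and 0 of 12 under A-CREB (0.33). At an unadjusted p under 0.05, 9 of 12 were higher at 1 week, where 3.67% of all probe sets were, and 4 of 12 under A-CREB, where 2.29% were. All 12 lay above 0 at 1 week and 10 of 12 under A-CREB. Their summed intensity was 42356 to 50240 in the 3 week VP16-CREB pools, against 11197 to 11355 in their controls. At 1 week it was 21714 to 25480 in VP16-CREB pools, against 11274 to 15472 in controls, and under A-CREB 13821 to 18131, against 11623 to 14737. Of 13 measured markers of T and NK cells 0 were called and 1 passed the filter, with a summed intensity of 543 to 569 in the 3 week VP16-CREB pools, against 301 to 381 in controls. Of the 13, 11 had a difference above 0 at 3 weeks (median log2 difference 0.44, range -0.12 to 1.11). Cd8a, which passed the filter, averaged 159 in those VP16-CREB pools and 109 in controls, Cd3e 66.1 and 28.7, and Cd4 9.95 and 9.71. Of the measured markers of B and plasma cells 0 of 4 passed the filter, and of monocytes and neutrophils 1 of 5, which was not called. The others were not tested. At 3 weeks all 4 B and plasma cell markers lay above 0 (median log2 difference 0.56). Their summed intensity was 194 to 268 in VP16-CREB pools, against 139 to 167 in controls. Of the 5 monocyte and neutrophil markers 3 lay above 0 (median 0.18). Of 7 astrocyte markers 3 were called higher at 3 weeks (median log2 difference 0.78), among them Gfap (2.76). At 1 week 1 of the 7 was called (median 0.17), Gfap (1.80, limma adjusted p 0.0229), and under A-CREB 0 of 7 (median 0.15). Of 7 measured markers of hippocampal neurons 2 were called lower at 3 weeks, Prox1 (-1.20) and C1ql2 (-1.78). All 7 lay below 0 at 3 weeks (median log2 difference -0.46), 4 of 7 at 1 week (-0.13) and 6 of 7 under A-CREB (-0.11). At 1 week and under A-CREB 0 of 7 were called. Prox1 differed there by -0.13 and -0.15, and C1ql2 by -1.20 and -1.11. The part of these cells in the interferon genes' difference was not tested.

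**Figure D1:**
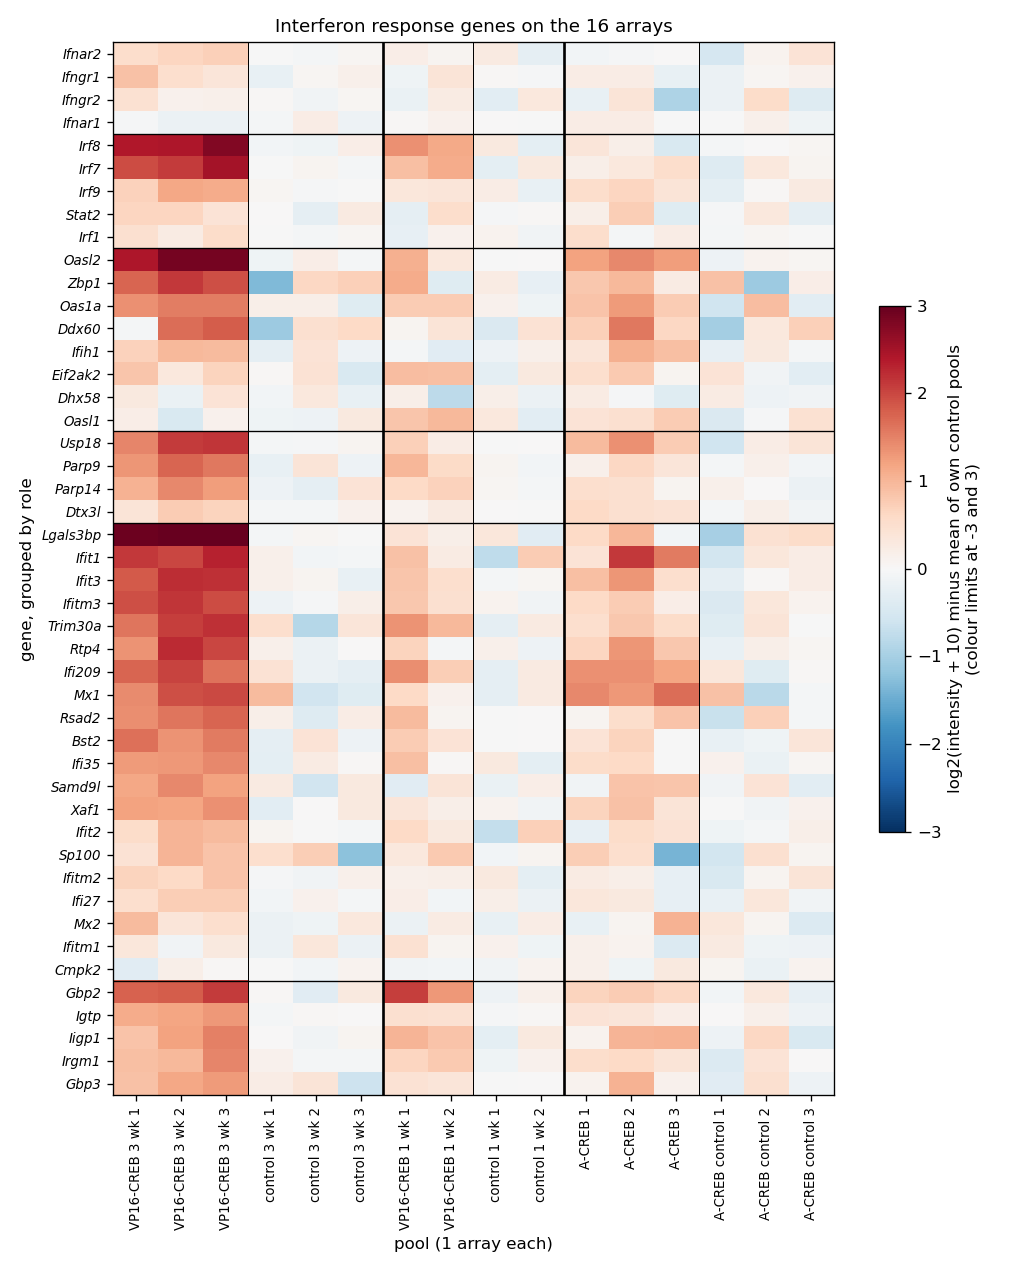
Each row is 1 of the 46 measured members, grouped by role, and each column 1 pool; colour gives log2(intensity + 10) minus the mean of that cohort's own control pools, from -3 (blue) to 3 (red). The 3 VP16-CREB pools at 3 weeks are red for nearly all rows below the receptors, while the 1 week VP16-CREB and A-CREB columns are paler.

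The receptor genes did not pass the test in any comparison (0 of 4). Ifnar2, the binding chain of the type I receptor, had 718, 785 and 820.0 in the VP16-CREB pools at 3 weeks, against 496, 478 and 516 in controls (log2 difference 0.63, limma adjusted p 0.127). Ifngr1, the binding chain of the interferon-gamma receptor, had 569.7, 433 and 395, against 260.2, 315 and 339 in controls (0.59, adjusted p 0.14). For both, every VP16-CREB pool lay above every control pool, and weighting arrays by their quality brought both under the threshold (adjusted p 0.00266 and 0.0224), a setting that called 15.3% of all probe sets in place of 3.93%. Fitting only the arrays compared, which called 5.42%, brought Ifnar2 under it (adjusted p 0.0215). Ifnar1 had 574, 520.1 and 514 in VP16-CREB pools, against 558, 684 and 524 in controls, which overlap. Ifngr2 had 636, 506 and 516, against 476, 430.4 and 478 in controls (0.25), which do not overlap. At 1 week and under A-CREB the receptors' log2 differences lay between -0.26 (Ifngr2 under A-CREB) and 0.15 (Ifnar1 under A-CREB). In A-CREB pools Ifnar1 had 660.2, 658 and 560.1, against 558, 619.7 and 510.1 in controls, and Ifnar2 had 415, 427 and 439.9, against 307, 472 and 585. Ifngr1 had 327, 325 and 238, against 246, 289.7 and 304, and Ifngr2 350.3, 541 and 214, against 367, 609 and 314. For all 4 receptor genes the A-CREB pools and their controls overlap. In the 1 week VP16-CREB pools Ifnar1 had 522 and 559, against 514 and 513 in controls, and Ifnar2 had 538 and 493, against 562 and 387. Ifngr1 had 249.98 and 364, against 283 and 267, and Ifngr2 284 and 391, against 262 and 407. At 1 week Ifnar1 alone of the 4 had both VP16-CREB pools above both controls.

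Among the transcription factors 3 of 5 rose at 3 weeks. Irf7, which amplifies the type I response and is itself induced by it, had an intensity of 438, 477 and 642 in VP16-CREB pools, against 103, 111 and 100.1 in controls. The groups are far apart, at 4.55-fold (log2 difference 2.19, SE 0.21, adjusted p 2.74e-05). Irf8, a factor of myeloid cells including microglia and induced by interferon-gamma, had 749.8, 755 and 967, against 126, 121 and 153 in controls (5.80-fold, log2 2.54, SE 0.22, adjusted p 1.15e-05). Its second probe set also rose (log2 difference 2.74, adjusted p 0.00152). Irf9, the DNA-binding part of the complex that recognises the ISRE, had 322, 452 and 432, against 203, 192 and 193 (1.98-fold, adjusted p 0.00549). Stat2, its partner, had 177, 177 and 149, against 110.0, 88.4 and 135 (log2 difference 0.57, adjusted p 0.394). Irf1, an early target of interferon-gamma, had 506, 426 and 532, against 359, 345 and 378 (log2 difference 0.42, adjusted p 0.251). For both Stat2 and Irf1 every VP16-CREB pool was above every control pool although neither passed the test.

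Of the sensors of foreign RNA and DNA 5 of 8 passed the filter, Zbp1 only through the 3 week VP16-CREB pools. Of these 5, 3 rose. Oasl2, an oligoadenylate synthetase-like protein, had 547, 748 and 749 in VP16-CREB pools at 3 weeks, against 84.7, 108 and 89.9 in controls. It had the smallest adjusted p of the list (6.59-fold, log2 difference 2.72, SE 0.19, adjusted p 3e-06). Oas1a, an enzyme that makes the messenger that activates RNase L, rose 2.80-fold (adjusted p 0.0132). Ifih1, the sensor of long double-stranded RNA known as MDA5, rose 1.83-fold (adjusted p 0.0482). Zbp1, a sensor of left-handed nucleic acids, had 106, 140.1 and 123, against 3.78, 43.1 and 47.3 in controls, a log2 difference of 1.93 with an adjusted p of 0.0873. Eif2ak2, the kinase PKR that halts translation, did not pass at its brightest probe set (log2 difference 0.61, adjusted p 0.334), while another of its probe sets did (1.30, adjusted p 0.0184). Ddx60 (69.9 in VP16-CREB and 25.2 in control pools on average), Dhx58 (75.7 and 65.9) and Oasl1 (72.7 and 74.1) stayed under the filter.

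All 4 tested genes of ubiquitin-like tagging and ADP-ribosylation rose. Usp18, the protease that removes the tag Isg15 and restrains the type I receptor, had 261, 408 and 424, against 85.1, 86.6 and 93.5 in controls (3.73-fold, SE of the log2 difference 0.26, adjusted p 0.000653). Its lowest VP16-CREB pool, at 261, was still well above the highest control. Parp9 and Dtx3l, which act together as a ubiquitin ligase complex, rose 2.93-fold (adjusted p 0.000284) and 1.52-fold (adjusted p 0.026). Parp14, an ADP-ribosyltransferase, rose 2.37-fold (adjusted p 0.00158).

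Of the effectors 13 of the 18 tested members rose, among them Ifi209 and Mx1, which passed the filter only through the 3 week VP16-CREB pools. Lgals3bp, a secreted glycoprotein that binds galectins, had 2459, 2585 and 2933 in VP16-CREB pools, against 300.1, 325 and 311 in controls (8.27-fold, log2 difference 3.05, SE 0.36, adjusted p 0.000174). Its controls varied by little here, while those of the other cohorts reached 735 and 449.7 at 1 week and 231, 647 and 687 in the A-CREB cohort. The IFIT proteins bind viral RNA and hold back its translation, and their genes lie close together on chromosome 19. Ifit1 had 447, 409 and 508, against 106, 88.7 and 90 in controls (log2 difference 2.14, SE 0.43, adjusted p 0.0102). Ifit3 had 1329, 1738 and 1717, against 409.8, 386 and 312 (log2 difference 2.08, SE 0.22, adjusted p 5.42e-05). Ifit2, the other IFIT member, had 319.5, 450.4 and 428, against 229, 214 and 206, and did not pass (log2 difference 0.84, adjusted p 0.192).

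The IFITM proteins block the entry of viruses at membranes, and 1 of their 3 genes passed. Ifitm3 had 4755, 5536 and 4814, against 1119.7, 1207 and 1410.0 (4.03-fold, SE of the log2 difference 0.21, adjusted p 5e-05). Ifitm2 had 662, 631 and 762, against 401, 385 and 459 (log2 difference 0.71, adjusted p 0.111), and Ifitm1 had 266, 195 and 259, against 185, 266 and 185 (log2 difference 0.18). Thus the groups were apart for Ifitm3 and Ifitm2 and overlapped for Ifitm1, and the differences between these genes were not tested.

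Trim30a, a tripartite motif protein that dampens innate signalling in mouse cells, had 495, 696 and 751, against 226, 82.4 and 204 in controls (log2 difference 1.95, SE 0.32, adjusted p 0.00266). Rtp4, a chaperone of receptors, had 646, 1215 and 1031, against 280.0, 221 and 251 (log2 difference 1.86, SE 0.26, adjusted p 0.0007). Ifi209, of the family of DNA-sensing PYHIN proteins, had 161, 198 and 147, against 58.4, 35.3 and 32.3 (log2 difference 1.81, SE 0.25, adjusted p 0.000606). Ifi209 lay under the filter's level of 99.1 on every array outside the 3 week VP16-CREB pools. In Trim30a, Rtp4 and Ifi209 the lowest VP16-CREB pool exceeded the highest control pool.

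The other 6 effectors that passed the test were Mx1, Rsad2, Bst2, Ifi35, Samd9l and Xaf1. Mx1, a dynamin-like GTPase (log2 difference 1.77), lay under 99.1 on every array outside the 3 week VP16-CREB pools. Rsad2 is the radical enzyme viperin (1.58), and Bst2 the tether that holds budding virions at the cell surface (1.52). Ifi35 (1.34), Samd9l (1.27) and Xaf1, an antagonist of the apoptosis inhibitor XIAP (1.25), followed. Ifi27 averaged 3235 ± 292 in VP16-CREB pools and 2044 ± 178 in controls (SD, n = 3 each) and did not pass (adjusted p 0.0934). Cmpk2, which lies beside Rsad2 on chromosome 12 and is often induced with it, averaged 474 ± 85.5 in VP16-CREB pools and 485 ± 30.4 in controls (log2 difference -0.05, SE 0.17). Mx2, at 15.9 and 7.06, and Sp100, at 89.4 and 57.1, stayed under the filter.

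The interferon-inducible GTPases, which act on the membranes around intracellular pathogens, rose in 4 of 5. Gbp2, a guanylate-binding protein, had 516, 541 and 659 in VP16-CREB pools, against 149.8, 114 and 179 in controls (3.73-fold, log2 difference 1.90, SE 0.22, adjusted p 0.000153). Igtp, an immunity-related GTPase, had 532, 558 and 605, against 232, 246 and 244 (2.29-fold, SE of the log2 difference 0.13, adjusted p 6.5e-05). Of the tested members Igtp had the smallest SE. Irgm1 rose 2.17-fold (adjusted p 0.00602) and Iigp1 2.28-fold (adjusted p 0.0432). Gbp3 had 344, 416 and 454, against 213, 242 and 115, and missed the threshold (adjusted p 0.0628). Ifit3, Oas1a, Ifi209, Gbp3 and Iigp1 have close relatives in the mouse genome whose transcripts their probes may also catch, so their identity is uncertain.

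**Figure D2:**
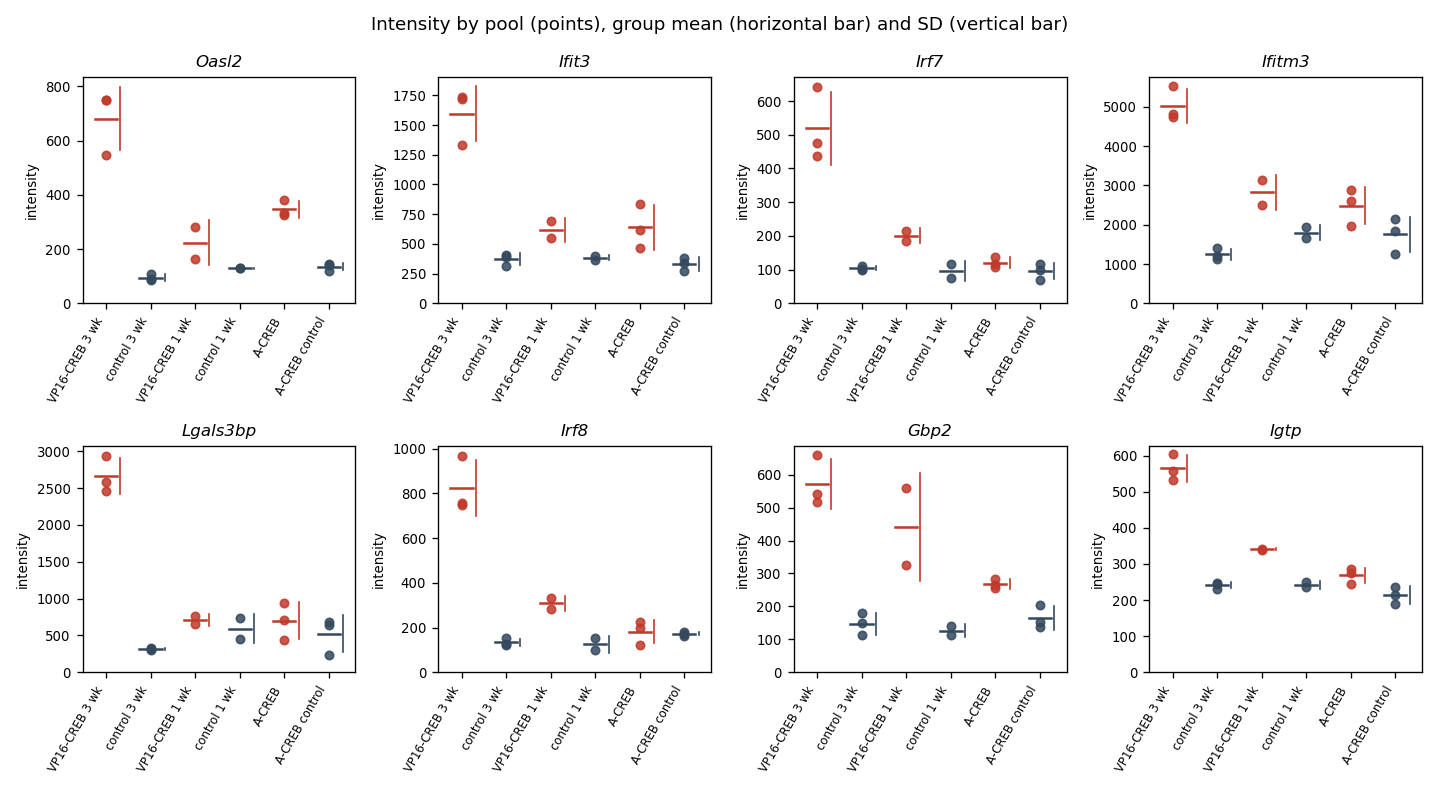
Intensity of 8 members in every pool (points), with the group mean (horizontal bar) and SD (vertical bar), VP16-CREB and A-CREB pools in red and control pools in dark blue. In all 8 the 3 week VP16-CREB pools stand above every 3 week control pool. Oasl2, Ifit3, Gbp2 and Igtp are also apart under A-CREB, whereas Irf7, Ifitm3, Irf8 and Lgals3bp overlap there.

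Some of the rises depended on single pools or on the processing. Of the 27 called members, 18 stayed called under all the settings tried, and leaving out 1 pool left 19 to 25 called, the fewest without VP16-CREB replicate 3. Ifit1 lost its call without VP16-CREB replicate 3 (adjusted p 0.0542). Oas1a did so without control replicate 3, VP16-CREB replicate 2 or VP16-CREB replicate 3 (0.0557 to 0.0695), and Rsad2 without control replicate 2, VP16-CREB replicate 2 or VP16-CREB replicate 3 (0.0508 to 0.0693). Samd9l lost its call without any 1 of the 6 pools (0.0592 to 0.18), Ifih1 without any but control replicate 2 (0.0683 to 0.21) and Iigp1 without any but VP16-CREB replicate 1 (0.102 to 0.201). Mx1 lost it without control replicates 2 or 3 or VP16-CREB replicates 2 or 3 (0.112 to 0.14), and Dtx3l without control replicates 1 or 2 or VP16-CREB replicates 2 or 3 (0.103 to 0.134). Among the other settings, Mx1 lost its call with no pseudocount (0.146), no filter (0.0652), only the arrays compared (0.0546) and the replicate block (0.0794), and it was not tested with the filter on the mean, quantile normalization or median centring. With no filter Ifih1, Dtx3l, Samd9l and Iigp1 lost theirs too (0.0807 to 0.111), and with the replicate block Dtx3l, Samd9l and Iigp1 (0.0542 to 0.0684). Median centring ended the calls of Ifih1, Dtx3l and Iigp1 (0.0629 to 0.0948), no pseudocount those of Ifih1 and Iigp1 (0.0565 and 0.0555), and fitting only the arrays compared those of Ifih1 and Dtx3l (0.0568 and 0.058). Ifi209 was not tested where the filter was put on the mean.

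At 1 week after induction the members stood higher by less, and 1 of 41 passed the test. The median log2 difference was 0.42 over the 46 measured members and 0.03 over all probe sets, with 42 of 46 above 0, where 53.8% of all probe sets were. The values ran from -0.30 (Dhx58, under the filter) to 1.69 (Gbp2). In 25 of 46 (54.3%) both VP16-CREB pools lay above both controls, against 17.5% of all probe sets. At an unadjusted p under 0.05, 14 of 41 were higher, where 3.67% of all probe sets were. The adjusted threshold called 0.218% of all probe sets higher.

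The called member was Gbp2, with 558 and 326 in VP16-CREB pools, against 112 and 141 in controls. Both VP16-CREB pools are above both controls but differ widely from each other (3.22-fold, log2 difference 1.69, SE 0.27, adjusted p 0.0195). The call was lost without VP16-CREB replicate 1 (adjusted p 0.224), control replicate 1 (0.147) or control replicate 2 (0.0733), and when only the 4 arrays compared were fitted (0.389). The second probe set of Gbp2 had a log2 difference of 1.30 and was not called. Irf8 came next in size, at 333 and 284 in VP16-CREB pools, against 153 and 98.7 in controls (log2 difference 1.26, adjusted p 0.0889). Trim30a had 409 and 316, against 127 and 191 (1.16), Ifi209 64.9 and 37.2, against 13.3 and 24.2 (1.07), and Irf7 184 and 216, against 74.6 and 116 (1.02, adjusted p 0.199). These groups do not overlap, yet none of the 4 genes passed.

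Lgals3bp and Oasl2, the largest differences at 3 weeks, ranked lower at 1 week. Lgals3bp had 768 and 654 in VP16-CREB pools at 1 week, against 735 and 449.7 in controls, a log2 difference of 0.30. Oasl2 had 281 and 164, against 129 and 131 (0.69, adjusted p 0.591), with the second VP16-CREB pool near the controls. Ifit1 had 189 and 118, against 53.9 and 174, which overlap. Ifit3 had 691 and 546, against 368 and 399.9, and Ifitm3 3138 and 2509, against 1932 and 1664. Usp18 had 222 and 155, against 129.6 and 133, and Rtp4 626 and 376, against 439 and 350.2. For Ifit3, Ifitm3 and Usp18 the groups do not overlap, and for Rtp4 they do. Igtp had 343 and 338, against 235 and 249 in controls (0.48), and Irf9 279 and 282, against 252 and 186 (0.36). Stat2 had 95.2 and 173, against 112 and 119.9, and Irf1 279.9 and 364, against 358 and 312. The groups do not overlap for Igtp and Irf9, and they do for Stat2 and Irf1.

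Taking the 2 VP16-CREB effects against each other, the 3 week effect minus the 1 week effect was called for 0 of 41 members, where 0.0037% of all probe sets (1 of 27044) were called in either direction. At an unadjusted p under 0.05, 17 of the 41 were larger at 3 weeks, where 833 of all 27044 probe sets were. The largest were Lgals3bp (log2 2.75, SE 0.57, adjusted p 0.197) and Oasl2 (2.03, SE 0.31, adjusted p 0.123). Oasl2 passed with quantile normalization (adjusted p 0.019) and with array weights (0.0382), and Lgals3bp when only the arrays compared were fitted (0.0266).

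**Figure D3:**
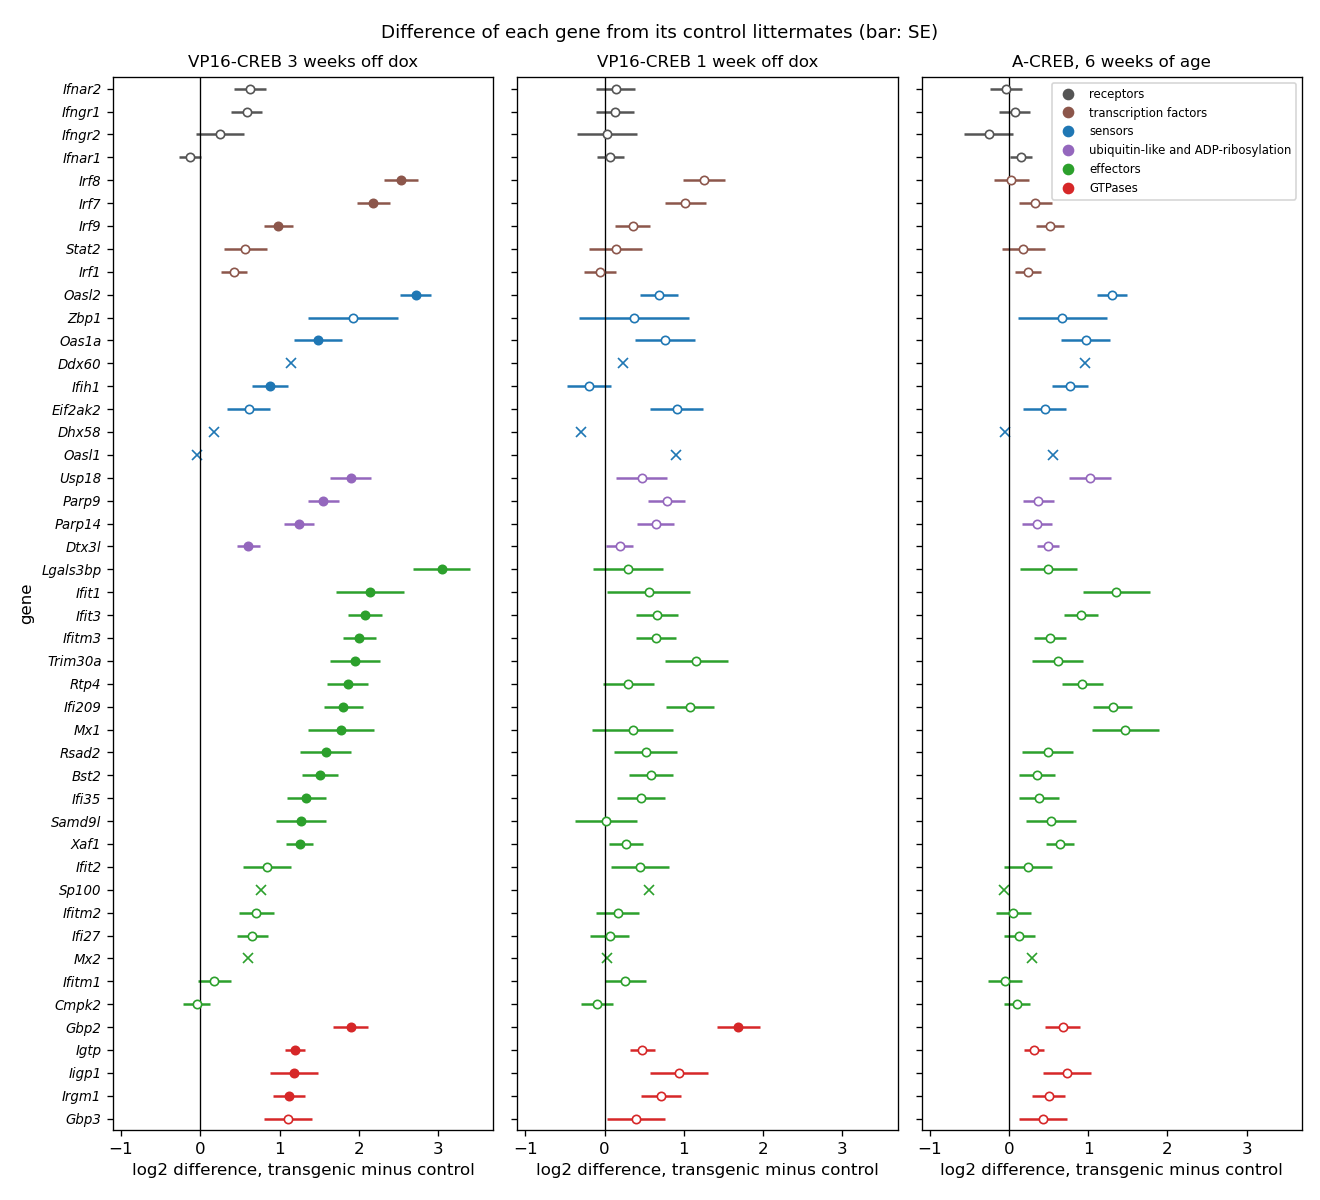
Log2 difference of each measured member from its own control littermates, with the SE of the fit as a bar, at VP16-CREB 3 weeks, VP16-CREB 1 week and A-CREB; filled points passed the test, open points did not and crosses mark the 5 members under the filter. At 3 weeks 27 points are filled, at 1 week Gbp2 and under A-CREB none.

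A-CREB, which blocks CREB, was also accompanied by higher values of many members, and none passed the adjusted test. Of 41 tested members limma called 0, as it called 0 of 27044 probe sets (0%) in either direction. At an unadjusted p under 0.05, 17 of 41 were higher and 0 lower, where 2.29% of all probe sets were higher. The median log2 difference was 0.47 over the 46 measured members and 0.00 over all probe sets, and 41 of 46 were above 0, where 50.7% of all probe sets were. The values ran from -0.26 (Ifngr2) to 1.47 (Mx1). In 14 of 46 (30.4%) every A-CREB pool lay above every control, against 4.06% of all probe sets. The count of 17 became 14 to 21 when single pools were left out and 13 without both replicate 1 pools of low Xist, where the members' median was 0.39.

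Oasl2 came nearest to the threshold under A-CREB. It had 324, 380.4 and 333 in A-CREB pools, against 119.8, 144 and 139.6 in controls (2.46-fold, log2 difference 1.30, SE 0.19, adjusted p 0.0801). Every A-CREB pool was more than 100 units above the highest control pool. Ifi209 had 64.1, 64.3 and 55.2, against 26.1, 12.3 and 19.2 (1.31, adjusted p 0.307), and Mx1 49.4, 43.5 and 59.3, against 30.1, 2.39 and 10.8 (1.47, adjusted p 0.859), both low signals that do not overlap between the groups. Ifit1 had 106, 370.0 and 249, against 49.6, 102 and 92.2 (1.36), with A-CREB replicate 1 just above the highest control. Ifit3 had 617, 837 and 464, against 269, 335 and 384 (0.91, adjusted p 0.654), and Usp18 226, 307 and 199.9, against 70.8, 133 and 152 (1.02, adjusted p 0.733). Rtp4 had 549, 882 and 616, against 293, 393 and 359.8 (0.93), and Gbp2 265, 283 and 255, against 154, 205 and 137 (0.68). In these last 4 genes no A-CREB pool fell below a control pool.

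Other members differed little or overlapped under A-CREB. Irf8 had 226, 197 and 123 in A-CREB pools, against 164, 173 and 180.4 in controls (log2 difference 0.03, SE 0.22), and its second probe set -0.10. Irf7 had 106, 118 and 137, against 69.2, 117 and 98.2 (0.34, SE 0.21). Lgals3bp had 710.1, 943 and 442, against 231, 647 and 687 (0.50, SE 0.36). In Lgals3bp the spread within either group was as wide as the difference. Ifitm3 had 2596, 2894 and 1969, against 1261, 2151 and 1847 (0.52), Trim30a 256, 318 and 267, against 137, 237 and 176 (0.62), and Igtp 285, 275 and 245, against 214, 237 and 189 (0.32). The groups overlap for Ifitm3 and narrowly do not for Trim30a and Igtp. Irf9 had 285, 313 and 258, against 158, 199.6 and 238 (0.52), without overlap, and Stat2 127, 192 and 84.6, against 108, 140.2 and 91.2, and Irf1 397, 260.3 and 319, against 259, 284 and 269.6, with overlap.

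The 3 week VP16-CREB effect minus the A-CREB effect, both in mice of 6 weeks but of different lines, was called higher for 6 members of 41 and lower for 0, where 0.828% of all probe sets were called higher and 0.887% in either direction. Irf8 differed by 2.50 on the log2 scale (SE 0.30, adjusted p 0.00182) and Irf7 by 1.85 (SE 0.30, adjusted p 0.00872). Both kept their calls under all 22 alternatives tried. Lgals3bp differed by 2.55 (adjusted p 0.0327), Ifitm3 by 1.49 (0.0289), Oasl2 by 1.42 (0.0266) and Igtp by 0.88 (0.0372). These 4 calls were each lost in several settings, among them no filter (0.078 to 0.126) and the replicate block (0.0573 to 0.103). Oasl2 was lost without any 1 pool other than VP16-CREB replicate 1, 3 week control replicate 2, A-CREB replicate 2 or A-CREB control replicate 1 (adjusted p 0.0575 to 0.0963), and Ifitm3 without any other than 3 week control replicate 3, A-CREB replicate 2 or A-CREB control replicate 1 (0.0515 to 0.094). Lgals3bp was lost without any other than A-CREB replicate 2 or A-CREB control replicate 1 (0.0593 to 0.106), and Igtp without any other than A-CREB control replicate 3 (0.0539 to 0.133). The differences of effect were small for Ifi209, at 1.81 under VP16-CREB and 1.31 under A-CREB, for Mx1, at 1.77 and 1.47, and for Ifih1, at 0.87 and 0.77. None of the 3 differences passed the test, which does not show that the effects are equal. Of the 12 microglia and macrophage markers 7 were called higher in the same contrast (median 1.91), and their part in it was not tested.

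**Figure D4:**
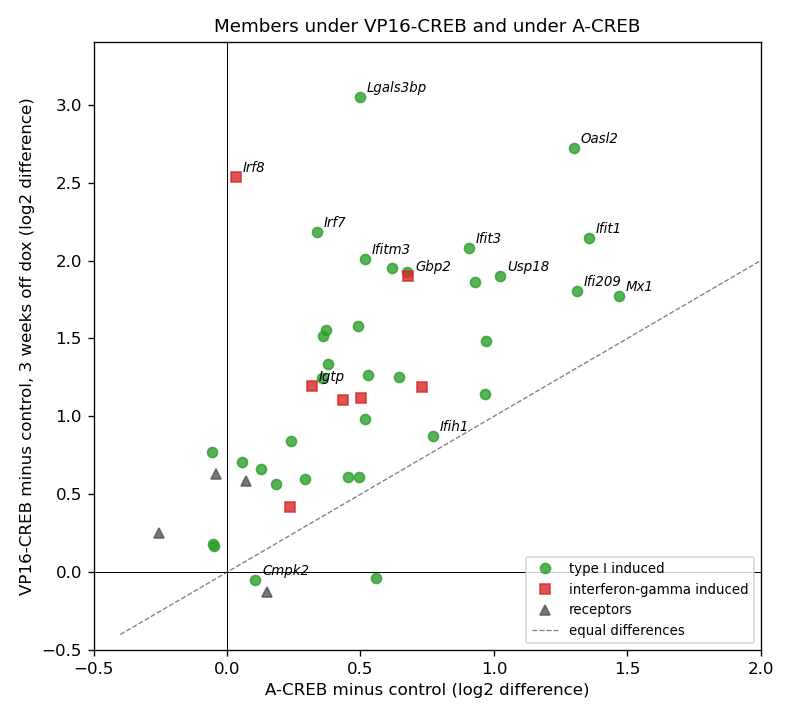
Each point is 1 of the 46 measured members, with the A-CREB log2 difference on the x axis and the 3 week VP16-CREB log2 difference on the y axis; the dashed line marks equal differences. Irf8, Lgals3bp and Irf7 lie far above the line near the left, while Mx1, Ifi209 and Ifih1 lie close to it.

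Across the 46 members, the log2 differences at 3 weeks and under A-CREB, which share no pools, had a Spearman correlation of 0.61, and over all probe sets that passed it was 0.08. Between 3 weeks and 1 week of VP16-CREB it was 0.60, against 0.27 over all probe sets, and between 1 week and A-CREB 0.39, against 0.13. The points are genes, which share the arrays of each comparison and are not independent replicates.

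The pools of a group also differed as a whole. The median of the members against the mean of their own controls was 0.99, 1.19 and 1.33 in VP16-CREB replicates 1, 2 and 3 at 3 weeks, against -0.03, -0.03 and 0.03 in control replicates. At 1 week it was 0.59 and 0.34 in VP16-CREB pools, against -0.01 and 0.01 in controls. Under A-CREB it was 0.42, 0.63 and 0.37 in A-CREB pools, against -0.16, 0.15 and 0.02 in controls. Every transgenic pool lay above every control pool of its cohort, and the ranges of the 1 week VP16-CREB and the A-CREB pools overlapped.

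Over all measured members, type I and interferon-gamma induced members differed in their medians by at most 0.26 on the log2 scale in any of the 3 comparisons. At 3 weeks the median log2 difference was 1.27 over the 35 measured type I members and 1.19 over the 7 interferon-gamma members. Of the tested members 22 of 30 type I and 5 of 7 interferon-gamma were called higher. The type I counts include Ifi209 and Mx1 (called) and Zbp1 (not called), which passed the filter only through the 3 week VP16-CREB pools. At 1 week the medians were 0.45 and 0.71, with 0 of 30 and 1 of 7 called. Under A-CREB they were 0.50 and 0.43, with 0 called in either list. The median of type I minus that of interferon-gamma was thus 0.08 at 3 weeks, -0.26 at 1 week and 0.06 under A-CREB. Leaving out single pools moved it between -0.01 and 0.26 at 3 weeks, between -0.49 and -0.04 at 1 week and between -0.13 and 0.18 under A-CREB, and with all probe sets of the members it was -0.07 at 3 weeks. Its sign therefore held within those settings at 1 week and turned in the other 2 comparisons.

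Within the interferon-gamma list the values spread widely, a spread that was not tested. Irf1 had log2 differences of 0.42 at 3 weeks, -0.06 at 1 week and 0.24 under A-CREB. Gbp2 had 1.90, 1.69 and 0.68, and Irf8 2.54, 1.26 and 0.03. Iigp1 had 1.19, 0.94 and 0.73, and Irgm1 1.12, 0.71 and 0.50. Gbp2 and Irf8 thus had the 2 largest values of the list in both VP16-CREB comparisons, while under A-CREB Iigp1 had the largest and Irf8 the smallest.

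An ISRE core stood in the promoter window of 11 of the 21 members called at 3 weeks that had a window (52.4%) and of 5 of the 15 not called or not tested (33.3%). The GAS core stood in 6 of 21 (28.6%) and 5 of 15 (33.3%). The windows of Oasl2 and Irf7 held neither core, and that of Irf8 held GAS cores without an ISRE core; no match says only that these letters are not in that window.

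Genes of the pathway that are no members were read from lists drawn up by function. Their counts at 3 weeks stand beside 3.28% of all probe sets called higher. The calls of these genes were not tried under the alternative settings. Interferon ligands could not be tested, since 0 of 10 measured ligand genes passed the filter: Ifnb1 averaged 19.43 in VP16-CREB and 25.02 in control pools at 3 weeks, and Ifnz 30.3 and 18.1, all under the median of all values. Of 11 tested genes of signal transduction and its brakes 2 rose at 3 weeks, Stat3, which carries signals of many cytokines (log2 difference 1.24, adjusted p 0.00245), and Ptpn6, a phosphatase of blood cells (2.23, adjusted p 1.54e-05). The kinases that start the signal did not pass the test, with Jak1 at 0.06 and Tyk2 at 0.23. Of 10 tested nucleic acid sensing genes 4 rose, Tlr7, the endosomal receptor of single-stranded RNA (2.28), Ddx58, the sensor RIG-I (1.10), Trim25, which ubiquitinates it (1.00), and Tmem173, the adaptor STING (0.88, adjusted p 0.0482).

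Of 18 tested genes listed as further type I induced 8 rose at 3 weeks, where 3.28% of all probe sets were called higher. Ifi27l2a averaged 1107 ± 183 in VP16-CREB and 62.4 ± 9.64 in control pools (SD, n = 3 each; log2 difference 3.94, adjusted p 3.26e-06), which is larger than any member. Ifi30, a thiol reductase of lysosomes (2.30), Isg20, an exonuclease (1.93), and Tor3a (1.44) followed. Ifi30 is better known as induced by interferon-gamma, so its rise does not speak for type I interferons in particular. Of 7 tested further interferon-gamma induced genes 4 rose, Gbp6 (2.45), the adhesion molecule Icam1 (1.90), Nlrc5, an activator of MHC class I genes (1.28), and Irgm2 (1.22). At 1 week Icam1 was the 1 gene of these lists called, where 0.218% of all probe sets were called higher. Icam1 averaged 165 ± 6.01 in VP16-CREB and 51.8 ± 31.7 in control pools (SD, n = 2 each), with a log2 difference of 1.61 (limma adjusted p 0.0499). Under A-CREB 0 of the genes on these lists were called. The 3 week effect exceeded the A-CREB effect for Ifi27l2a (by 3.04, adjusted p 0.00267), Ptpn6 (2.44, adjusted p 0.00154), Ifi30 (1.74, adjusted p 0.0104) and Stat3 (1.36, adjusted p 0.0436).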

How the data were processed

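Members and lists were chosen with earlier results of these data known. The authors deposited MAS5 intensity values on a linear scale (per the submitters' processing notes, without a version). Each array's mean without the 2% of values at either end was 500, and no array replicates another (0 identical pairs; correlations within groups 0.954 to 0.985). The 64 control probe sets were left out. Of 45037 probe sets 34945 carried 1 gene symbol, 932 several and 9160 none; no gene was named from several. Values were log2(intensity + 10), and folds are on that scale. Probe sets above 99.1 on at least 2 arrays were kept (27044, 60.0%). Using R 4.3.3 with data.table (version 1.17.8), limma 3.58.1 fitted all 16 arrays with a coefficient per group (10 residual and 3.44 prior degrees of freedom), with two-sided moderated tests, Benjamini-Hochberg adjustment over the kept probe sets and calls at adjusted p under 0.05. Each replicate is a pool; p-values measure the spread between pools, whose number limits precision.

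Named with values on every array were the 12 largest rises called at 3 weeks, members called elsewhere or in a difference of effects, the receptors and Irf1, Irf7, Irf8, Irf9 and Stat2, and from other lists up to 4 called genes. A gene counts at its probe set of highest mean. Same-numbered pools were not paired in the main fit. The script was tested on simulated data. Alternatives were no pseudocount or 25, no filter or one on the mean, quantile normalization, median centring, only the arrays compared, trend with robust variances, array weights, a replicate block, other probe sets, each pool left out and, added after the data were seen, passed members only and both low-Xist pools left out. Figures used Python 3.11.15 with pandas 2.3.3 and matplotlib 3.10.9.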

Additional observations from a re-analysis of the deposited data

Results flagged for a closer look

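Of the members, 6 differed between the 3 week VP16-CREB effect and the A-CREB effect in the test of that difference (limma, adjusted p under 0.05). On the log2 scale Lgals3bp differed by 2.55, Irf8 by 2.50, Irf7 by 1.85, Ifitm3 by 1.49, Oasl2 by 1.42 and Igtp by 0.88, each larger under VP16-CREB, in 3 of 3 VP16-CREB pools above all their controls. The cohorts also differ in line and in dox history. With 2 or 3 pools per group, single pools were not tested as outliers.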

How the results depend on the processing

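No called difference changed sign under any setting tried. The 27 members called at 3 weeks became 19 to 36 over all settings (36 with array weights, where 15.3% of all probe sets were called in either direction, and 22 with no filter, where 1.77% were, against 3.93% for the 27) and 19 to 25 with single pools left out, and their median 1.09 to 1.30. Of the 27, 18 kept their call throughout and 9 lost it in at least 1 setting. The median of type I minus interferon-gamma members at 3 weeks was -0.071 with all probe sets of the members, and -0.0067 to 0.26 with single pools left out. At 1 week Gbp2 was the 1 member called, and 0 were called with no filter (its adjusted p 0.0592), only the arrays compared (0.389), array weights (0.0672) or the replicate block (0.0837), and 0 to 1 with single pools left out, where a group of 1 pool is assumed to vary like the others; the members' median was then 0.34 to 0.59 and type I minus interferon-gamma -0.49 to -0.04. Under A-CREB 0 were called in every setting, with medians of 0.34 to 0.55, 14 to 21 members at unadjusted p under 0.05 and type I minus interferon-gamma -0.13 to 0.18 with single pools left out. The 3 week minus 1 week effect was called for 1 member with quantile normalization (Oasl2), only the arrays compared (Lgals3bp) or array weights (Oasl2), and for 0 without any single pool. The 3 week minus A-CREB effect was called for 6 members, for 2 with no filter, 3 with only the arrays compared, 2 with the replicate block and 2 to 6 without single pools. The cause of these changes was not tested.

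Whether the replicate numbers pair the pools is not settled. Same-numbered residuals correlated at -0.16, -0.23 and 0.22 at 3 weeks, 0.15 at 1 week and -0.05, 0.41 and 0.27 in the A-CREB cohort. With 2 pools per group the 1 week values are equal by construction. The control pool of highest correlation was the same-numbered one for 3 week replicate 3 and A-CREB replicates 2 and 3. It was another for 3 week replicates 1 and 2 and A-CREB replicate 1. Both replicate 1 pools of the A-CREB cohort had low Xist. With the replicate block 24 members were called at 3 weeks, 0 at 1 week, 0 under A-CREB and 0 for the 3 week minus 1 week effect. MAS5 values near the background are noisy, which limits Mx1, Ifi209 and the members under the filter.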
